A study of Rattus norvegicus with 93 samples.

Results

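The comparison is between large and small skull defects in rats 7 days after surgery: 5 arrays of 8 mm defects against 5 arrays of 4 mm defects, 10 of the 93 arrays of the series. Round full-thickness holes were drilled with a trephine in the calvaria, the flat bone of the skull roof, of male rats aged 12 weeks, with the dura below left in place. The 8 mm hole is of critical size in the design, a hole that does not close by itself, and the 4 mm hole is below that size. A trephine matching the defect was used again at harvest, so each sample is 1 defect with the bone and repair tissue inside that circle, and no unoperated bone was used here. Every sample is labelled with a rat number (10, 12, 13, 14 and 15 in both sizes), and all values below are given in that order; no strain, no agent and no genetic change is given in the labels. RNA was hybridised to 1-colour Agilent whole-genome arrays, and 41090 probes were given as linear ratios, of which 15975 genes could be named. Values below are log2 of those ratios, and a difference is always 8 mm minus 4 mm, given on the deposited scale unless it is called centred, which means after subtracting each array's own median.

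At the end of the first week a calvarial defect is filled by granulation tissue: macrophages clear debris, new capillaries with their pericytes grow in, and fibroblast-like cells lay down a collagen-rich matrix before bone forms. Bone grows inward from the cut margin and from the dura, under the control of BMP, Wnt and FGF ligands. The same plug can carry brain, dural, muscle, skin or marrow tissue from its surroundings, and such tissues were therefore followed with their own marker lists. In a bulk sample, fewer cells of a type and less RNA per cell cannot be told apart.

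The 8 mm arrays stood lower as whole arrays. The median over all probes was 0.24, 0.24, 0.12, 0.26 and 0.27 on the 4 mm arrays and -0.27, -0.29, -0.27, -0.08 and 0.16 on the 8 mm arrays. Only the 8 mm array of rat 15 reached the range of the 4 mm arrays. The means were 0.23 ± 0.06 (SD, n = 5) and -0.15 ± 0.19 (SD, n = 5), a difference of -0.38 (exact permutation test over 252 splits, two-sided p = 0.0159, where 0.00794 is the smallest p the design allows). Any gene's difference on the deposited scale contains this offset: over all genes the median difference was -0.40 on the deposited scale and -0.02 centred, and 62.9% and 51.0% of genes had a difference below 0.

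A set of probes moved together over the arrays. On all 10 arrays, 59 probes kept the distance to the Col1a1 probe fixed to within 0.02, and 217 probes did so on at least 6 arrays; no other probe did so on more than 4. Among the 217 are those of Col1a1, Col1a2 and Col3a1 (the main bone and scar collagens), Sparc, Spp1 and 22 of 35 ribosomal protein genes. The Col1a1 probe stood at 0.26, -0.47, 0.73, 0.14 and -0.02 on the 4 mm arrays and -0.67, -1.29, 1.12, -0.20 and -0.24 on the 8 mm arrays, in which the groups overlap (difference -0.38, exact permutation p = 0.413). The probes of Col1a1, Col1a2, Col3a1 and Sparc are among the 59 and give 1 value apart from a constant, so no size difference was read from type I and type III collagen. The other probes left the common value on up to 4 arrays; of the 95 genes in all, none passed the test below. Why they move together was not tested.

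**Figure D1:**
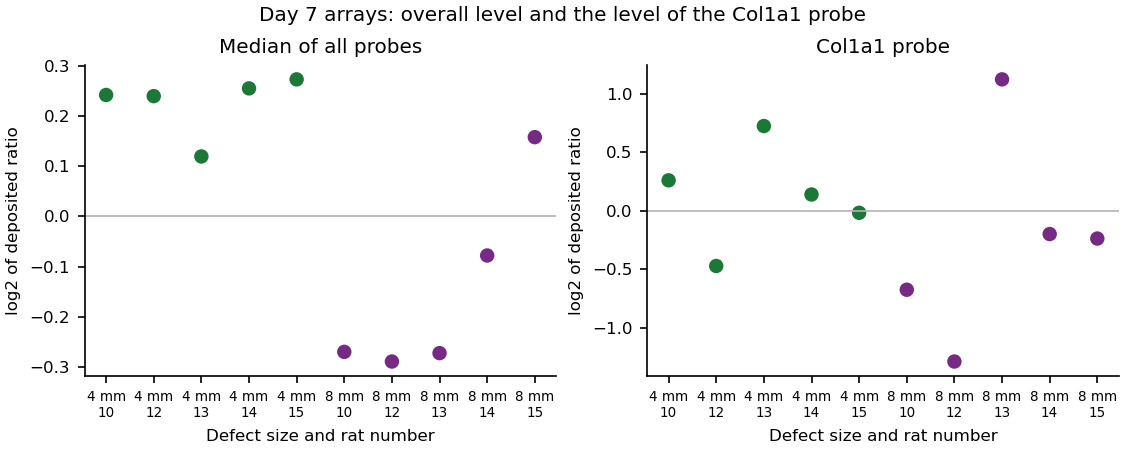
Left, the median log2 ratio over all 41090 probes on each day 7 array; right, the log2 ratio of the Col1a1 probe on the same arrays (green, 4 mm; purple, 8 mm; 1 point per array, labelled by rat number). The 8 mm medians lie below the 4 mm medians except for rat 15 at 0.16, while the Col1a1 probe runs from -1.29 to 1.12 within the 8 mm arrays and the sizes overlap.

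The 8 mm group was the more uneven one. Over the 9601 genes above the lowest deposited value on all 10 arrays, the median SD within a group was 0.41 for 4 mm and 0.65 for 8 mm, and 7105 genes (74.0%) had the larger SD in 8 mm. Across those genes, which are not independent replicates, pairs of 4 mm arrays correlated with r between 0.12 and 0.52 and pairs of 8 mm arrays with r between 0.01 and 0.64. The highest of these joined the 8 mm arrays of rats 10 and 12. The 2 arrays of rat number 13 held the largest share of probes at the lowest deposited value, 16.7% (4 mm) and 17.2% (8 mm), against 10.1% to 15.0% on the other 8, and also the 2 highest Col1a1 values.

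Markers of neighbouring tissues were high in some 8 mm plugs and not in others. The neuron list (16 measured markers) had mean values of -1.78, 0.83, -2.04, -1.61 and -0.25 on the 4 mm arrays and 2.69, 3.90, -0.59, -1.64 and 0.33 on the 8 mm arrays. The astrocyte, oligodendrocyte and myelin list (18 markers) ran alike, at -1.13, -0.11, -1.64, 0.95 and -1.11 against 3.25, 2.24, -1.39, -0.07 and -0.72. Brain markers were thus high on the 8 mm arrays of rats 10 and 12 and within the 4 mm range on the other 3. Nefm, the medium neurofilament chain, stood at 6.32 and 8.21 on those 2 arrays, and Mbp, the myelin basic protein, at 6.28 and 4.96, where the highest 4 mm values were 4.56 and 2.65. Of the neuron list, 14 of 16 differences were above 0 (median 2.06), and of the glial list 16 of 18 (median 1.02); none passed the adjusted threshold, and no defining marker of either list was at the lowest deposited value on all arrays of a size.

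Skeletal muscle markers (29 measured; median difference 1.28) were high on other arrays. Their mean was between -1.94 and -1.41 on the 4 mm arrays and -1.49, 0.79, 1.58, -1.35 and -1.91 on the 8 mm arrays, so that rats 12 and 13 stood out. Ckm, the muscle creatine kinase, reached 1.62 and 4.4 there, and Acta1, skeletal actin, 2.21 and 4.41. The erythroid and marrow list (14 measured; median 1.16) was highest in the 8 mm plug of rat 14, at 1.65, against a 4 mm range of -1.99 to 0.21. Klf1, an erythroid transcription factor, was at 3.3 and Hemgn, a marrow nuclear protein, at 3.46 on that array. Neutrophil markers were high on the same array, at 0.42 against -2.18 to -1.28 in the 4 mm group. Meningeal markers (18 measured; median 1.01) overlapped between sizes, since the 4 mm plug of rat 14 had the highest mean of all 10, 2.38. The 8 mm plug of rat 15 lay within the 4 mm range for the neuron, glial, muscle and meningeal lists. The part these tissues play in the gene differences below was not tested.

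**Figure D2:**
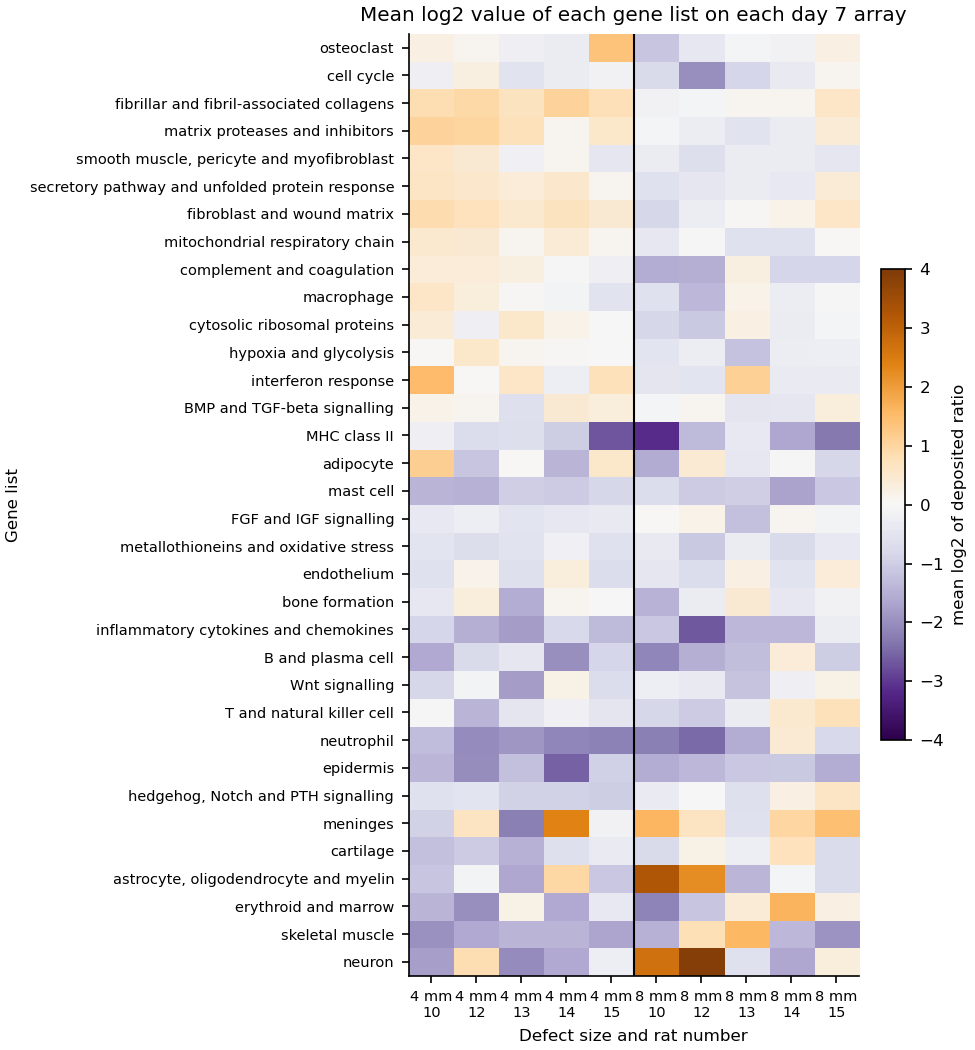
Mean log2 ratio of each of the 34 gene lists (rows, ordered by median size difference) on each day 7 array (columns; the line separates 4 mm from 8 mm). The brain lists are highest on the 8 mm arrays of rats 10 and 12, the muscle list on those of rats 12 and 13, and the erythroid list on that of rat 14, while collagen, protease, wound matrix and secretory lists are higher on most 4 mm arrays.

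Few single genes passed the adjusted test between the sizes. On the deposited scale 59 of 15975 genes (0.369%) passed an adjusted p of 0.05 (limma, moderated test with Benjamini-Hochberg adjustment, all 93 arrays in the fit), 9 higher in 8 mm (0.0563%) and 50 lower (0.313%). With centred arrays 69 passed (0.432%), 28 higher (0.175%) and 41 lower (0.257%). On both scales 49 passed in the same direction (0.307%), 40 lower and 9 higher. In 18 of the 49 the 2 sizes did not overlap on either scale, which choosing genes by a small p partly builds in. Over all genes 7.98% were lower without overlap and 0.407% higher, and with centred arrays 3.24% and 1.18%. Without adjustment 2424 genes (15.2%) had a p under 0.05, 11.5% of all genes lower and 3.71% higher; with centred arrays these shares were 5.69% and 6.35%. The spread in that fit is shared by all groups of the series; with the 10 day 7 arrays alone 6 genes passed, all higher, and none of them was among the 59.

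The 40 genes lower on both scales were lowest in the 8 mm plugs of rats 13 and 15. Their median was between 0.25 and 0.71 on the 4 mm arrays, -0.46 and -0.32 on the 8 mm arrays of rats 10 and 12, -4.31 for rat 13, -0.80 for rat 14 and -4.08 for rat 15. The lowest 8 mm value came from rat 13 for 27 of the genes, from rat 15 for 11 and from rat 14 for 2. Without the 8 mm array of rat 13, only 2 genes passed on the deposited scale (1 higher, 1 lower), and without those of rats 13 and 15 together, 8 passed. All 40 kept a difference below 0 in that last fit, with the median going from -2.53 to -1.08. Of the 40, 19 then had an unadjusted p under 0.05 and 2 passed (limma). The 40 were chosen as lower on these same arrays, so keeping the direction is largely built in. Without rats 10 and 12, on the other hand, 325 genes passed, 265 of them lower.

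Other probes of these genes mostly showed smaller differences. Of the 12 genes passing on either scale as lower for which another probe exists, 11 had the other probe lower too, but at a median of -0.85 against -2.60. The centred median of the other probes was -0.48. The chosen probe is the most variable of its gene and the one that passed, so a smaller difference on another probe is partly built in. Rpl36al1, a ribosomal protein gene, is an example: its chosen probe stood at -0.69, -0.33, -5.90, -2.07 and -4.10 on the 8 mm arrays, and its other probe at -0.79, -0.70, -0.43, -0.37 and 0.22. For this gene the very low values of rats 13, 14 and 15 were thus seen by 1 of the 2 probes, while the low values of rats 10 and 12 were seen by both. Not every gene ran this way. The other probe of Wbp4 stood at -2.28, -2.46 and -1.59 on the 8 mm arrays of rats 13, 14 and 15, and differed by -1.68 against -1.47 for the chosen probe. That of Srprb stood at -2.21 on the 8 mm array of rat 13, but at 0.85 on that of rat 15, where the chosen probe stood at -4.06. The other probe of Srprb differed by -1.05 against -2.12 for the chosen probe. Of the 79 genes passing on either scale 63 have a single probe.

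**Figure D3:**
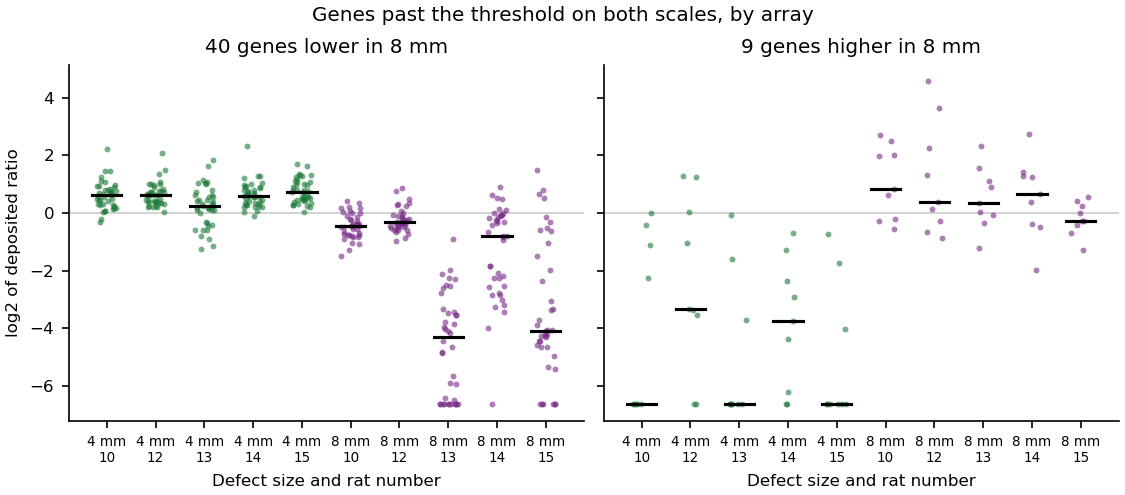
Log2 ratio on each day 7 array of the 40 genes lower (left) and the 9 genes higher (right) in 8 mm on both scales (green, 4 mm; purple, 8 mm; 1 point per gene, black bar the median). On the left the 8 mm medians of rats 13 and 15 are -4.31 and -4.08 and those of the other 3 rats lie above -1; on the right many 4 mm points lie at the lowest deposited value.

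Hrct1, a small histidine-rich membrane protein, had the smallest p on both scales among genes above the lowest deposited value on all 10 arrays. It stood at 1.09, 0.46, 0.18, 0.35 and 0.30 on the 4 mm arrays and -1.29, -0.45, -2.27, -1.85 and -6.63 on the 8 mm arrays. The value of -6.63, from rat 15, lay only just above the lowest deposited value, so the size of the difference is uncertain. Every 8 mm value lay below every 4 mm value, and the SD was 0.36 in 4 mm and 2.41 in 8 mm (n = 5 each). The SE of the fit comes from the spread shared by all groups of the series, not from these 2 SDs. The difference was -2.98 ± 0.55 (SE; limma adjusted p = 0.00695) and -2.60 centred (limma adjusted p = 0.00689), and it passed without any 1 of the 10 arrays, between -3.49 and -1.94, but not without rats 13 and 15 together (-1.67, limma adjusted p = 0.262).

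Usp47, a deubiquitinating enzyme, was even in the 4 mm group, at 1.10, 1.06, 1.09, 1.30 and 1.34, and stood at 0.19, -0.30, -2.12, -0.13 and -4.44 in the 8 mm group. The groups did not overlap, also when centred. The difference was -2.54 ± 0.50 (SE; limma adjusted p = 0.00724), and its other probe differed by -0.88 (unadjusted p = 0.0499). Acot11, a thioesterase of lipid metabolism, stood at 1.45, 1.36, 1.83, 1.04 and 1.32 against 0.00, 0.36, -3.43, -3.01 and -1.49. Here the 8 mm plug of rat 14 was low together with those of rats 13 and 15, and the groups did not overlap on either scale. Its difference was -2.91 ± 0.65 (SE; limma adjusted p = 0.0183) and -2.28 without rats 13 and 15 (limma adjusted p = 0.285).

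Of the 12 genes with the largest decreases among those above the lowest deposited value, the other 9 differed by between -3.12 and -2.43 on the deposited scale. They were Tmem223 and Prelid1, which encode mitochondrial proteins, Ccdc93, which acts in endosomal sorting, Polr2j, a subunit of RNA polymerase II, Rpl36al1, B9d2 of the ciliary transition zone, Slc30a5, a zinc transporter, Aldh2, the mitochondrial aldehyde dehydrogenase, and Aif1. Their adjusted p was 0.0239 or lower on the deposited scale (limma). On the 8 mm array of rat 13, Tmem223 (-6.50) and Polr2j (-6.41) also lay close to the lowest deposited value. With ratios under 0.25 raised to 0.25, only 2 of all genes passed on the deposited scale. After quantile normalization Aldh2 (adjusted p = 0.112), Slc30a5 (0.115), Rpl36al1 (0.0912), Prelid1 (0.0576) and Aif1 (0.0620) no longer passed (limma). Without rats 13 and 15 none of these 12 genes passed; their differences then ran from -2.28 to -0.58.

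Of genes above the lowest deposited value on all 10 arrays, only B4galnt1, which makes complex gangliosides, passed as higher on both scales. It stood at 0.00, 0.03, -3.71, -0.68 and -4.01 on the 4 mm arrays and 0.84, 0.39, -1.20, 0.40 and 0.57 on the 8 mm arrays. The groups overlap, through the 8 mm plug of rat 13, and the low 4 mm values of rats 13 and 15 carry much of the difference, 1.87 ± 0.48 (SE; limma adjusted p = 0.0489). Kcna6, a voltage-gated potassium channel, Tcp11, a testis protein, Gprin1, a neurite outgrowth protein, and Rundc3a, a neuronal effector of Rap2, passed only on the centred scale. Their deposited differences were 2.81, 2.07, 1.49 and 2.22, with adjusted p of 0.0683, 0.0539, 0.0827 and 0.0827 (limma). Of these 5, only Rundc3a showed no overlap: -0.84, -0.40, -0.87, -1.88 and -2.52 in 4 mm against 1.30, 1.85, 0.60, 0.73 and 0.10 in 8 mm.

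Larger increases rested on 4 mm values at the lowest deposited value, a ratio of 0.01 (-6.64 in log2), so that no fold is given for them. Niban3, a protein known from B cells, was at that value on 4 of 5 4 mm arrays and at -3.31 on the fifth, and at -0.19, -0.65, 2.34, 2.76 and -0.42 on the 8 mm arrays (limma adjusted p = 0.00724, and 0.00689 centred). Serpini1, which encodes neuroserpin, a protease inhibitor of neurons, stood at -1.12, 1.26, -6.64, -6.21 and -6.64 against 2.72, 4.57, -0.35, 0.67 and 0.43 (limma adjusted p = 0.0130). Without the 8 mm arrays of rats 13 and 15 it still passed (limma adjusted p = 0.0185). Its 2 highest values were those of rats 10 and 12, whose neuron markers were high. Hrk, a pro-apoptotic BH3-only protein of neurons, passed on the centred scale alone (limma adjusted p = 0.0417). Its chosen probe was at the lowest value on 4 of the 4 mm arrays and between 1.14 and 4.31 on all 8 mm arrays. The 2 other probes of Hrk differed by 2.14 and 0.96 (limma unadjusted p = 0.177 and 0.565), and the first of them was at the lowest value on no day 7 array. These 3 genes were chosen after their values were seen.

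Of the 15975 genes, 7 were at the lowest deposited value on all 5 4 mm arrays and above it on all 5 8 mm arrays, and none the other way round. Whether chance gives as many was not tested. The 5 with the smallest p are listed at the lowest value in 4 mm and stood on the 8 mm arrays between 0.28 and 3.24 for Cyp3a9, a drug-metabolising cytochrome, between -0.27 and 1.81 for Bhlha15, a transcription factor of secretory cells, between -0.10 and 1.38 for Prl7a3, a placental prolactin-family hormone, between -4.10 and 1.04 for Ubr3, a ubiquitin ligase, and between -1.82 and 2.90 for Or1f19f, an olfactory receptor. Another probe of Ubr3 differed by -0.997. Cyp3a9 alone passed, on the centred scale (limma adjusted p = 0.0465). The share of probes at the lowest value was 13.9% ± 2.0 in 4 mm and 11.9% ± 3.0 in 8 mm (SD, n = 5 each; exact permutation p = 0.230).

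Among the 682 measured genes of the 34 tissue and pathway lists, 3 passed as lower on the deposited scale (all genes, 0.313%) and none as higher (all genes, 0.0563%). With centred arrays 2 passed as lower and 2 as higher. They were Rgs5, Aif1 and Tpi1 in the first direction and Wnt4 and Pygm in the second. Over whole lists, 23 of 34 had a median difference below 0 (16 centred, 22 after quantile normalization), beside 62.9% of all genes below 0 (51.0% centred, 57.1% after quantile normalization).

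Pericytes, the contractile cells around capillaries, gave 1 of the 3 list members that passed as lower. Rgs5, a regulator of G-protein signalling that marks pericytes, stood at 2.23, 2.07, 1.65, 2.34 and 1.65 on the 4 mm arrays and at 0.43, 0.32, -2.76, 0.61 and 1.51 on the 8 mm arrays. All 8 mm values lay below all 4 mm values, with rat 15 closest, and this also held when centred. The difference was -1.97 ± 0.47 (SE; limma adjusted p = 0.0308) and -1.59 centred (limma adjusted p = 0.0377); without rats 13 and 15 it was -1.53 (limma adjusted p = 0.271), without the 8 mm array of rat 13 alone -1.27, and after quantile normalization its adjusted p was 0.0652 (limma).

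The other pericyte markers had values in the same direction without passing. Higd1b stood at 2.51, 1.81, 1.34, 1.22 and 1.05 against -0.16, 0.55, 0.35, 0.00 and 0.66, a difference of -1.31 ± 0.44 (SE, limma adjusted p = 0.162). Its sizes did not overlap on the deposited scale but did when centred. Kcnj8, the pore of a vascular potassium channel, differed by -2.33 (limma adjusted p = 0.0930) and Pdgfrb, the receptor that recruits pericytes, by -0.79 (limma adjusted p = 0.410); both overlapped through the 8 mm plug of rat 15, at 0.20 and 1.45. Lmod1, a smooth-muscle actin nucleator of the same list, differed by 3.79 with 2 of the 4 mm arrays at the lowest value. Of the 14 genes in the smooth muscle, pericyte and myofibroblast list 11 were below 0 (median -0.70), and 10 when centred.

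Fibroblast and wound matrix genes had values below 0 almost throughout, without passing the test. Of 26 measured genes 25 had a difference below 0, with a median of -0.68 against -0.40 for all genes, and 23 were below 0 when centred (median -0.30 against -0.02). None passed; 8 had an unadjusted p under 0.05 (all genes lower, 11.5%), and in 4 the sizes did not overlap (all genes lower, 7.98%). With centred arrays these counts were 3 (all genes lower, 5.69%) and 1 (all genes lower, 3.24%). Without the 3 members that move with the Col1a1 probe the median was -0.74.

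Postn, or periostin, a matrix protein of periosteum and healing wounds, stood at 2.14, 1.93, 2.53, 1.66 and 1.96 in 4 mm and 0.07, 0.75, 1.19, 1.20 and 1.38 in 8 mm. Thbs2, thrombospondin 2, stood at 1.76, 1.11, 0.83, 1.21 and 0.94 against -0.47, 0.29, -0.18, -0.54 and 0.65. Ogn, osteoglycin, stood at 1.28, 0.95, 0.33, 0.82 and 0.76 against -1.22, -0.03, -1.5, 0.00 and -0.02. All 3 separate the sizes on the deposited scale, with differences of -1.13, -1.22 and -1.38 and limma adjusted p of 0.319, 0.298 and 0.136. Aspn, asporin, a small proteoglycan, differed by -1.44 (limma adjusted p = 0.216) without overlap, and Eln, elastin, was the exception in this list at 1.22 (limma adjusted p = 0.644). Of these 5 only Thbs2 still separated the sizes when centred.

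The collagen list had all 15 measured genes below 0 (median -0.81; centred, 11 of 15 and -0.43), none of them passing. Col12a1, which coats collagen fibrils, stood at 1.70, 1.74, 1.04, 1.97 and 1.59 against 0.09, 0.69, 0.12, -0.01 and 1.18, overlapping through rat 15 alone. Col14a1, another fibril coat, did not overlap on the deposited scale, at 1.36, 1.42, 1.71, 1.10 and 1.02 against 0.28, 0.14, 0.85, 0.27 and 0.73, but overlapped when centred. Their differences were -1.19 (limma adjusted p = 0.304) and -0.87 (limma adjusted p = 0.650). Col5a3 differed by -2.66, with the 8 mm plugs of rats 13, 14 and 15 at -2.28, -2.25 and -4.43, and Col5a2 by -0.88 (limma adjusted p = 0.145 and 0.350).

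**Figure D4:**
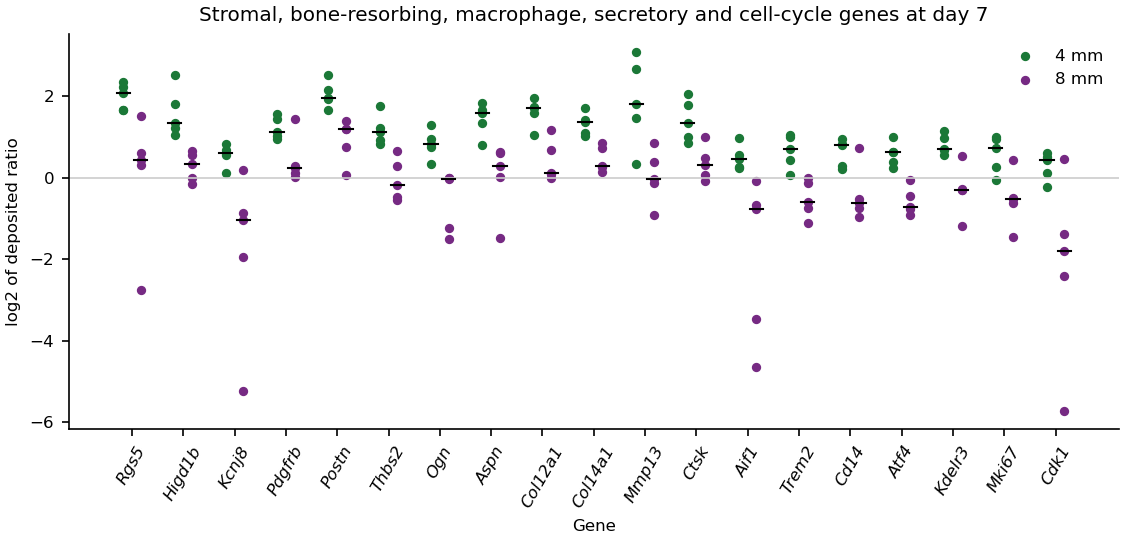
Log2 ratio of 19 genes on each day 7 array (green, 4 mm; purple, 8 mm; 1 point per array, black bar the median of 5). The 8 mm medians lie below the 4 mm medians for every gene shown, and the highest 8 mm point often reaches the 4 mm points. Rgs5 and Aif1 are the 2 genes shown that passed the test. The genes shown are a selection, with Postn, Mmp13, Ctsk, Mki67 and Pdgfrb added after their values were seen. Lmod1, Eln, Csf1r and Rrm2 of the same lists had differences above 0 with their chosen probes and are not shown.

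Macrophage markers had a median of -0.66 over 22 genes, 17 of them below 0 (16 centred); without the 4 members that move with the Col1a1 probe it was -0.73. Aif1, the calcium-binding protein of macrophages and microglia, passed on both scales. It stood at 0.98, 0.25, 0.47, 0.27 and 0.55 on the 4 mm arrays and -0.77, -0.67, -3.47, -0.09 and -4.64 on the 8 mm arrays, with no overlap on either scale, a difference of -2.43 ± 0.57 (SE; limma adjusted p = 0.0227), and -1.01 without rats 13 and 15 (limma adjusted p = 0.459). Trem2, a lipid receptor of tissue macrophages and osteoclast precursors, was separated more evenly on the deposited scale, at 0.99, 0.44, 0.06, 1.04 and 0.69 against 0.00, -1.12, -0.59, -0.75 and -0.14. Its sizes overlapped when centred. Trem2 differed by -1.16 (limma adjusted p = 0.219). Cd14, the endotoxin co-receptor, differed by -1.04 (limma adjusted p = 0.307). Csf1r, the receptor for the growth factor of macrophages, gave no usable direction: its chosen probe differed by 2.31 and another of its probes by -0.68.

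Genes of bone resorption and matrix breakdown had list medians below 0, and none passed. Of 12 osteoclast genes 8 were below 0, a share near the 62.9% of all genes (median -0.85, centred -0.48). Of 23 matrix proteases and inhibitors 21 were below 0 (median -0.71), and 18 when centred (-0.34). Mmp13, Ctsk and Acp5, given next, were added after their values were seen. Mmp13, the collagenase of bone and cartilage, stood at 1.81, 3.09, 0.34, 1.47 and 2.67 against -0.91, -0.04, 0.86, -0.13 and 0.37, and differed by -1.85 (limma adjusted p = 0.232). Ctsk, cathepsin K, which digests bone collagen, stood at 1.79, 1.35, 1.01, 0.85 and 2.04 against -0.09, 0.07, 0.47, 0.31 and 0.99. Ctsk overlapped through rat 15 only and differed by -1.05 (limma adjusted p = 0.289); Acp5, the osteoclast acid phosphatase, differed by -0.79 (limma adjusted p = 0.410). Tnfsf11, the RANK ligand that drives osteoclast formation, stood between 1.28 and 3.28 on the 4 mm arrays and at -6.64, -0.43, 0.74, -1.30 and 1.63 on the 8 mm arrays (limma adjusted p = 0.310). Mmp10 differed by -3.89 with 2 of the 8 mm arrays at the lowest value (limma adjusted p = 0.306).

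The secretory pathway and unfolded protein response list, the machinery that folds collagen and other exported proteins, had differences below 0 in 21 of 23 genes (median -0.70), and in 17 when centred (-0.32). None passed, while 6 of 23 did not overlap (all genes lower, 7.98%), and 3 of 23 when centred (all genes lower, 3.24%). Atf4, a stress-response transcription factor also needed by osteoblasts, stood at 0.99, 0.63, 0.25, 0.62 and 0.38 against -0.77, -0.45, -0.93, -0.73 and -0.06, separated on both scales. It differed by -1.16 ± 0.41 (SE; limma adjusted p = 0.197), and Kdelr3, which returns chaperones to the endoplasmic reticulum, by -1.11 (limma adjusted p = 0.322), also without overlap on both scales. Fkbp10 and Plod2, which fold and modify collagen, differed by -1.94 and -1.15 with overlap (limma adjusted p = 0.186 and 0.617).

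Growth-related lists also had medians below 0, with no member passing among cell-cycle, ribosomal and respiratory genes. Cell-cycle genes were below 0 in 21 of 25 (median -0.81; centred 19, -0.43). Mki67, a marker of dividing cells, stood at -0.06, 0.73, 0.26, 0.95 and 1.00 against -0.52, -1.46, -0.62, -0.51 and 0.44, and differed by -1.11 (limma adjusted p = 0.263). Cdk1, the mitotic kinase, differed by -2.46 with the 8 mm plug of rat 14 at -5.72 (limma adjusted p = 0.102). Pcna and Tyms, of DNA synthesis, differed by -2.22 and -2.06, and both were at -6.64 in the 8 mm plug of rat 13 alone (limma adjusted p = 0.175 and 0.220). Rrm2, of nucleotide synthesis, differed by 2.94 (limma adjusted p = 0.207) and by -0.95 with another of its probes.

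Ribosomal protein genes were below 0 in 34 of 35 (median -0.54), but 22 of them move with the Col1a1 probe; of the other 13, 12 were below 0, with a median of -0.77 (centred -0.39). Respiratory chain genes were below 0 in 31 of 34 (median -0.67; centred 26, -0.30). Rpl3 differed by -1.07 and Sdhc, a complex II subunit, by -1.19, both without overlap on the deposited scale only, and Ndufa5, a complex I subunit, by -0.94 without overlap on both scales; none passed (limma adjusted p = 0.316, 0.295 and 0.244). Rps19 shows how a single array can set a value: it moves with the Col1a1 probe on 6 arrays and stood at -5.07 in the 8 mm plug of rat 14. Hypoxia and glycolysis genes were below 0 in 21 of 23 (median -0.54), and in 13 when centred (-0.16). Tpi1, triose phosphate isomerase, passed on the deposited scale (-2.17 ± 0.55, SE; limma adjusted p = 0.0495) and not when centred (0.0608), with the 8 mm plugs of rats 13 and 15 at -3.92 and -3.76; without them it differed by -0.68. Ndrg1, a hypoxia-induced gene, differed by -1.75 with the 8 mm plug of rat 13 at -6.64.

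Bone formation genes showed no common direction. Of 26 measured, 17 were below 0 on the deposited scale (median -0.20) and 12 when centred (median 0.17), and none passed. Without the 4 members that move with the Col1a1 probe the median was -0.09 over 22 genes, 13 of them below 0, and 0.28 centred. Bglap, osteocalcin, the late osteoblast marker, ran from -1.66 to 4.46 in 4 mm and from -1.59 to 3.76 in 8 mm, a difference of -0.10 ± 1.16 (SE; limma adjusted p = 0.978). Alpl, the alkaline phosphatase of mineralising osteoblasts, stood at -0.13, 1.17, -0.95, 1.70 and -2.60 against 0.50, 2.59, 2.38, 2.17 and 2.81, and differed by 2.25 ± 1.13 (SE; limma adjusted p = 0.329). Phospho1, which starts mineral formation in vesicles, differed by 1.85, Ifitm5, an osteoblast membrane protein, by -1.76 and Runx2, the osteoblast master factor, by -1.32; each has an SE of at least 1.12 and overlapping groups, and another probe of Runx2 differed by 0.13.

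Cartilage genes were mostly above 0 (14 of 18; median 1.02, centred 1.39). Col9a2, a cartilage collagen chain, stood at -3.53, 0.47, -2.86, 1.79 and 1.21 against 1.71, 1.83, 1.22, 1.30 and 1.33, so that its 8 mm values were even and its 4 mm values wide, with a difference of 2.06 (limma adjusted p = 0.188). Comp, a cartilage and tendon matrix protein, went the other way, by -3.17 (limma adjusted p = 0.143).

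Of the signalling lists, BMP and TGF-beta genes were below 0 in 20 of 34 (median -0.47; centred -0.09), Wnt genes in 15 of 30 (median 0.05; centred 0.43) and FGF and IGF genes in 16 of 25 (median -0.30; centred 0.08). Hedgehog, Notch and PTH genes were above 0 in 13 of 18 (median 0.68). Bmp3, a BMP antagonist made by bone cells, stood at 1.23, 1.02, 1.58, 1.15 and 1.69 against -0.87, 0.45, 0.03, -3.29 and 1.19, while the osteogenic ligand Bmp6 stood at -1.46, 0.44, -0.89, 3.87 and 1.72 against 2.39, 2.15, 2.56, 2.54 and 3.51. They differed by -1.84 and 1.89, both with overlap (limma adjusted p = 0.453 and 0.409). Bmp7 and Gdf6, further ligands, differed by 1.61 and 1.93 (limma adjusted p = 0.289 and 0.285).

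Wnt4, a ligand of bone and meninges, was the signalling gene that passed, on the centred scale only (3.52, limma adjusted p = 0.0417; deposited 3.14 ± 0.90, SE, 0.0930). It stood at -1.52, -0.18, -6.64, 4.13 and -0.81 against 3.43, 1.48, -0.23, 1.41 and 4.60; the 4 mm plug of rat 14 was above 4 of 5 8 mm values, and that plug also had the highest meningeal mean. Fzd4, a Wnt receptor, differed by -2.10, and Igfbp2 and Fgfr2 of the FGF and IGF list by 2.58 and 4.11, each with at least 1 array at the lowest value. The meningeal genes Ptgds and Aldh1a2, a prostaglandin synthase and a retinoic acid synthesising enzyme, were likewise highest in the 4 mm group on the array of rat 14, at 4.99 and 2.52, and differed by 2.12 and 1.93.

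The remaining lists gave no member that passed on the deposited scale. Complement and coagulation genes were below 0 in 16 of 18 (median -0.66; centred 12, -0.29), with C6, of the lytic complex, at -1.23; interferon genes in 15 of 20 (median -0.50); and cytokines and chemokines in 13 of 23 (median -0.13). Ccl2, the monocyte chemokine, was at 0.78, 0.98, 0.75, -0.46 and 0.09 against -1.89, -1.75, -1.65, -0.98 and -0.24, overlapping only between the 4 mm plug of rat 14 and the 8 mm plug of rat 15 (difference -1.73, limma adjusted p = 0.142). MHC class II genes had a median of -0.41, with RT1-Da at -1.01 and RT1-Ba at the lowest value on all 5 8 mm arrays and on 2 of the 4 mm arrays. T and natural killer cell genes had a median of 0.25 (centred 0.63); Ctla4 and Cd5, 2 T cell receptors of inhibitory function, differed by 2.52 and 1.24. Medians of the neutrophil, B cell, mast cell, endothelial, adipocyte, epidermal and oxidative stress lists lay between -0.40 and 0.49. Mmp8, the neutrophil collagenase, differed by 2.28, Lpl, lipoprotein lipase, by -2.02, and the antioxidant enzymes Gpx3 and Hmox1 by -1.03 each (limma adjusted p between 0.226 and 0.623).

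The size difference of day 7 was then set against that of the neighbouring days, which come from other arrays (11 and 12 arrays of 4 and 8 mm at day 5, and 4 and 6 at day 10). Taken day by day in the same fit, no gene passed on days 1, 3 and 5 (deposited scale), 42 passed on day 10 (0.263%), 261 on day 14 (1.63%) and 383 on day 21 (2.4%); with centred arrays 1 passed on day 5 (0.00626%) and 489 on day 21 (3.06%). Group sizes differ between days. Against the mean of days 5 and 10, the day 7 difference passed for 21 genes (0.131%), 19 in the negative direction (0.119%) and 2 in the positive (0.0125%), and for 11 when centred. Without the 8 mm arrays of rats 13 and 15, 1 of the 21 passed.

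The genes of this test were largely those above. Usp47 differed by 0.48 at day 5 and 0.82 at day 10, against -2.54 at day 7 (difference of differences -3.19, limma adjusted p = 0.00963). Hrct1 and Acot11 gave -2.95 and -3.39 (limma adjusted p = 0.0344 and 0.0349), and Srrm2, a splicing factor, -3.01 (limma adjusted p = 0.0166), with its 2 other probes differing at day 7 by -0.75 and 0.97. Rad9a, a DNA damage checkpoint protein, passed at -3.52 (limma adjusted p = 0.0135) although it differed by only -0.51 at day 7, since its difference at day 10 was 5.92. The 2 genes in the positive direction were Niban3 and Serpini1 (limma adjusted p = 0.0135 each), whose fitted differences, set in part by the lowest deposited value, were 6.75 and 5.48 at day 7 and -1.99 and -3.23 at day 10. Among genes above the lowest value on all day 7 arrays none passed in the positive direction; those with the smallest p were B4galnt1, Gprin1, Kcna6, Jph1, a muscle junction protein, and Ovol2, an epithelial transcription factor, with limma adjusted p between 0.102 and 0.195.

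Rgs5 differed by 0.18 at day 5 and -0.69 at day 10, and Aif1 by 0.09 and 0.05. Neither change of the difference passed (-1.71, limma adjusted p = 0.251, and -2.50, limma adjusted p = 0.105), so a size difference particular to day 7 was not shown for them. Postn differed by -0.13 and -0.55, and Higd1b by -0.05 and -0.93.

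**Figure D5:**
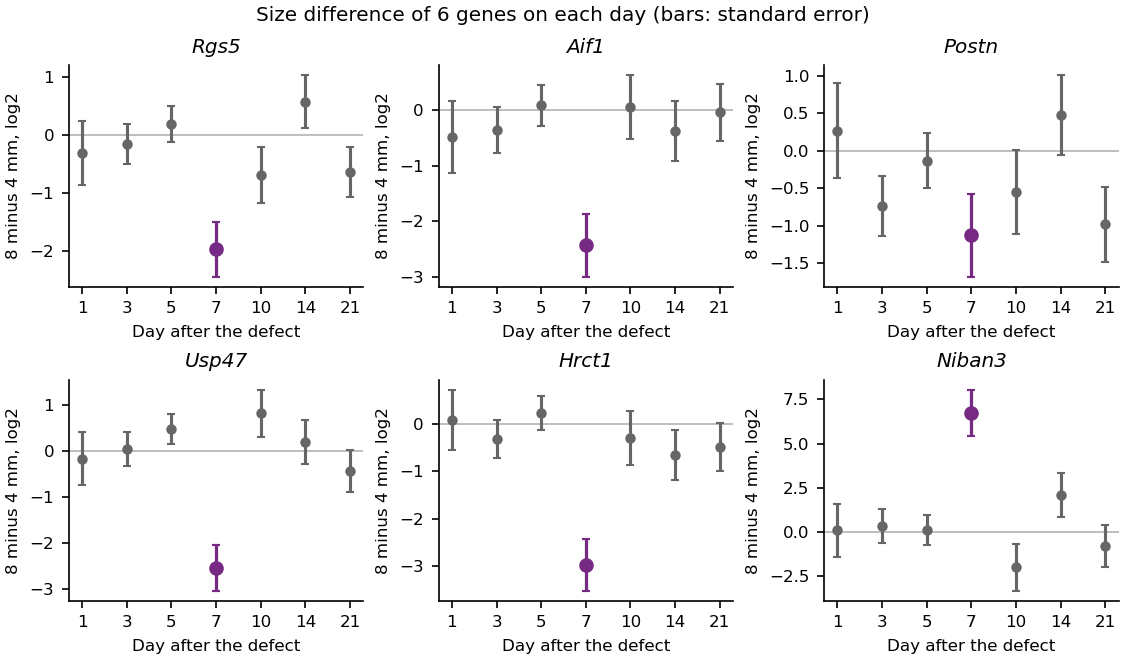
Difference in log2 ratio, 8 mm minus 4 mm, on each of the 7 sampled days for 6 genes (purple, day 7; grey, the other days; bars, standard error from the common fit). Usp47, Hrct1 and Aif1 lie between -0.66 and 0.82 on the other days and between -2.98 and -2.43 at day 7, Niban3, whose day 7 value is set in part by the lowest deposited value on 4 of 5 4 mm arrays, lies far above 0 there, and Postn is also below 0 at days 3, 5, 10 and 21.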

How the data were processed

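The 93 arrays (1-colour Agilent, Cy3) were read from the deposited value table. Its values were linear ratios made by the authors; the normalization is not given in the sources used here, the lowest ratio was 0.01, and 87.8% of probes had a median ratio of 1 over the arrays. Depth does not apply to arrays, and the number of arrays limits the precision. From these ratios log2 was taken with no pseudocount. Of 41090 probes, 20932 had 1 gene symbol in the platform annotation, 0 had several and 20158 had none; 17424 matched a RefSeq accession (GRCr8), which updated 2316 symbols. For each of 15975 genes the probe with the largest interquartile range over all arrays was used (3880 genes had several). One limma fit (version 3.58.1, R 4.3.3; lmFit, eBayes) covered all 14 day and size groups, and p-values were Benjamini-Hochberg adjusted over all genes, threshold 0.05. It was run on the deposited scale and with each array centred on its median over all probes, and was tested on simulated data. Single values were compared with exact permutation tests.

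Genes named are the largest changes passing on both scales (filled to 5 by smallest p), up to 4 per list, the 5 smallest p in each direction against days 5 and 10, and 5 genes at the lowest ratio in 1 size only; 10 others are Niban3, Serpini1, Hrk, Postn, Mmp13, Ctsk, Acp5, Mki67, Pdgfrb and Bglap, added after their values were seen. The comparison, its members and the lists were chosen with earlier results of these data known. No pairing of arrays is stated in the labels, so the fit has no replicate block. Over genes above the lowest ratio on all day 7 arrays, deviations of same-numbered arrays of the 2 sizes correlated between -0.27 and 0.20. The Col1a1 probe, though, was highest for rat 13 and lowest for rat 12 in both sizes. The labels do not say whether equal rat numbers in the 2 sizes are the same animal. The p-values measure only the spread between samples, which the main fit pools over all 14 groups of the series. Alternatives covered scaling, floor, filters, probe choice, array weights, block and left-out arrays.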

Additional observations from a re-analysis of the deposited data

Results flagged for a closer look

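Of 112 groups of 5 values tested for a value far from the other 4 (Dixon's test), 10 held one, and chance gives about 1 in 20 groups. In the 4 mm group the array of rat 13 stood apart in overall level (0.119) and in Ccdc93 (-0.577), Kcna6 (0.625), Rpl36al1 (-0.46) and Tmem223 (-1.13), and that of rat 12 in the hypoxia and glycolysis mean (0.559). In the 8 mm group the array of rat 13 stood apart in the interferon response mean (1.1), the FGF and IGF signalling mean (-1.24) and B4galnt1 (-1.2), and that of rat 15 in the secretory pathway and unfolded protein response mean (0.396).

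The size difference at day 7 differed from the mean of days 5 and 10 by an interaction contrast (limma, adjusted over all genes) for Usp47 (-3.19), Rad9a (-3.52), Srrm2 (-3.01), Hrct1 (-2.95) and Acot11 (-3.39), among the named genes above the lowest deposited value on all day 7 arrays that had the smallest p.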

How the results depend on the processing

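On the deposited scale, 59 genes passed. The count was 160 when centred on probes never at the lowest ratio, 2 with ratios under 0.25 raised to 0.25, 39 and 108 with genes above the lowest ratio on all day 7 arrays and on all arrays, 1 with less variable genes left out, 6 with the day 7 arrays alone, 2106 with array weights and 99 with the least variable probe of each gene. Leaving out 1 array gave 2 to 158. With centred arrays, where 69 passed, the counts were 42 with raised ratios, 42 above the lowest ratio, 2 without less variable genes, 7 with day 7 alone, 352 with array weights, and 6 to 222 leaving out 1 array. Against days 5 and 10, where 21 passed, centring gave 11 and leaving out 1 array 1 to 76.

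After seeing the data, pairs and triples of 8 mm arrays were left out. Without rats 13 and 15 the 3 counts were 8, 12 and 1; without rats 10 and 12, 325, 424 and 177; without rats 13, 14 and 15, 0 (limma; 1545 at an unadjusted p under 0.05), 4 and 1. The cause of these moves was not tested.

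Replicate block: the labels give same-numbered arrays only a common number. Over genes, the correlation of their deviations was -0.06, 0.20, 0.19, -0.27 and 0.02, with the own number best for 1 of 5. The Col1a1 probe was highest for rat 13 and lowest for rat 12 in both sizes. The block gave 125 genes on the deposited scale and 159 centred, 3 and 2 with day 7 alone, and 10 against days 5 and 10. The array level difference of -0.376 had p = 0.0625 in an exact sign-flip test, the smallest that 5 pairs allow.

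Directions turned for Rad9a centred on probes never at the lowest ratio (0.038), for Srrm2 (0.97), Ubr3 (-0.997), Csf1r (-0.68), Rrm2 (-0.95) and Runx2 (0.13) with the least variable probe, and without rats 13, 14 and 15 for Csf1r (-0.21) and Ifitm5 (0.0044). Bglap turned when centred (0.27; 0.45 on probes never at the lowest ratio), without rats 10 and 12 (0.15), and ranged from -0.85 to 0.68 leaving out 1 array. The number of lists with a median below 0, 23 of 34 on the deposited scale, ran from 16 to 27 under the alternatives. The 16 came from centred arrays, where 51.0% of all genes were below 0, and the 27 from leaving out rats 13, 14 and 15.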
